A study of Mus musculus with 24 samples.

Results

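The ventricle of the 1-week-old mouse was compared with the ages on either side of it, to find transcripts that stood higher or lower at 1 week than both before and after. The samples were 9 of the 24 arrays of the series: 3 at 1 week, 3 from neonates and 3 at 4 weeks, all of total RNA. The mice were of the inbred FVB strain and the tissue was heart ventricle. The other 15 arrays, in 5 groups of 3, came from embryonic day 12.5 (E12.5), from adults of 3 months (female) and 5 months (male), and from 1-year females and a 1-year group marked only m. They entered the estimate of the spread and are used to show levels at other ages. No genotype or treatment is named for any group, the neonates' age in days and the sex up to 4 weeks are not given, and the neonatal titles carry a pair of numbers each. The labels do not say whether an array stands for a single animal or a pool, so a p-value speaks of the spread among arrays, which may be technical.

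The mouse heart changes its mode of growth in the first week after birth. Cardiomyocytes leave the cell cycle after a last round of DNA synthesis and from then on grow in size, fibroblasts lay down the collagen and elastic fibres that carry the rising pressure, and capillaries multiply. Energy supply moves from glycolysis towards mitochondrial oxidation of fatty acids.

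For each of 9952 probe sets (the sets of array probes that measure a transcript) the 1-week mean of log2 signal was set against the midpoint of the neonatal and 4-week means. This difference is called the contrast. A probe set counted as a peak when the contrast passed an adjusted p of 0.05 and 1 week lay above each neighbour, and as a trough when it lay below each. Of the 9952, 218 (2.19%) passed the threshold. Among them 91 (0.914%) were peaks, 90 (0.904%) were troughs and 37 had different signs against the neighbours. At an unadjusted p below 0.05 there were 1300. A stricter test asked for a difference from each neighbour separately and was passed by 3 peaks (0.0301%) and 1 trough (0.01%). All 3 arrays of 1 week lay above all 6 arrays of the neighbours for 238 probe sets (2.39%) and below all 6 for 188 (1.89%). By gene, taking the brightest probe set of each, 77 of 7406 genes were peaks (1.04%) and 75 were troughs (1.01%). These shares are the ones to set beside each count of called list members below. The lists were chosen with earlier results of these data known, so their counts are no independent evidence. The probe sets nearest the threshold on its inner and outer side had adjusted p = 0.0490 and a value just above 0.05.

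**Figure D1:**
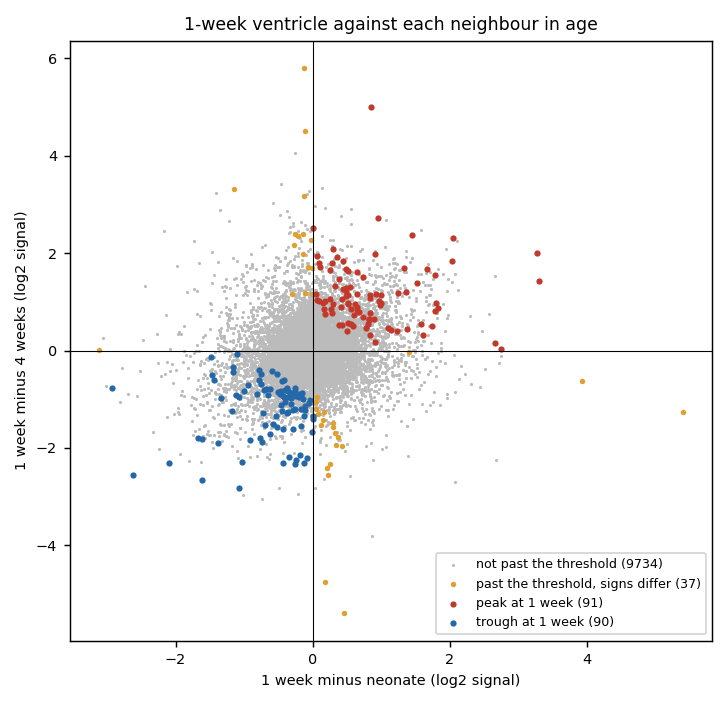
Each point is a probe set, with the log2 difference of the 1-week mean from neonates on the horizontal axis and from 4 weeks on the vertical axis. The 91 peaks lie in the upper right part and the 90 troughs in the lower left, many of them close to an axis, where 1 week differed little from 1 of its neighbours.

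Most of these excursions were small on their nearer side. The smaller of the 2 log2 differences from the neighbours, called the prominence here, reached 1 in 11 peaks and 9 troughs and stayed below 0.25 in 14 peaks and 22 troughs. The nearer neighbour was the neonate for 58 of 91 peaks and 71 of 90 troughs, so that the larger part of the contrast lay between 1 and 4 weeks. Tested against neonates alone, 34 of the 91 peaks and 20 of the 90 troughs had an adjusted p below 0.05. Against 4 weeks alone 73 and 79 did. An adjusted p printed with a contrast belongs to the contrast and not to the difference from either neighbour. For 63 of the 91 peaks the 1-week mean was the highest of all 8 groups, while 14 had their highest mean at E12.5 and 13 in 1-year females. For 49 of the 90 troughs 1 week was the lowest of all groups, and 37 were lower still at E12.5.

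The 9 arrays had median signals from 195.7 to 221.5. 1-week array 3 stood apart: it had the lowest weight of all 24 arrays when arrays were weighted by their fit to their group (0.427, against 1.71 and 1.09 for 1-week arrays 1 and 2). It gave the most extreme of the 3 values for 58 of the 91 peaks and 50 of the 90 troughs. Without it 37 peaks and 50 troughs were called. 1-week array 1 also differed, with a signal of 3018 for the 3′ probe set of 18S ribosomal RNA against 876 and 848 on 1-week arrays 2 and 3. Without it the counts were 60 and 75. Of the 65 called genes named by rule or by list, 36 lost the call without 1-week array 3, 23 without 1-week array 1, 14 without 1-week array 2 and 13 to 20 without any single array of the neighbours. The 24 that kept it in all of these fits and under all alternatives were, as peaks, Tent5c, Jun, Lsp1, Plxnd1, Mkrn1, Cd34, Kcne1, Mfap2, Eln, Col1a1, Col1a2, H2-K1, H2-D1 and H2-Q4. As troughs they were Fkbp5, Zbtb16, Bcat2, Bckdhb, Art3, Gstm1, Gstm3, Plin4, Hspe1 and Casq1. Xist, the RNA of the inactive X chromosome, read 2496, 131 and 12.8 in neonates, 1244, 51.9 and 96.3 at 1 week and 11.9, 18.1 and 23.9 at 4 weeks. The Y-linked Eif2s3y read 11.9, 536 and 496, then 6.00, 336 and 229, then 237, 368 and 332. Array 1 of the neonates and array 1 of 1 week thus had high Xist with low Eif2s3y, a pattern that no 4-week array showed, and the part of this in the contrasts was not tested. Of the ventricular myocyte markers, Myl2, Myh6 and Tnni3 read at least 21506 on every one of the 9 arrays, and none of the 9 tested was called. The summed signal of the atrial myocyte list was 30726.8 to 32160.7 in neonates, 23504 to 29246.5 at 1 week and 5351.4 to 6615.5 at 4 weeks. The part of atrial RNA in the contrasts was not tested.

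The genes that stood above each neighbour separately encode a transcription factor, an actin-binding protein and a receptor. The 3 peaks of the strict test were Jun, Lsp1 and Plxnd1, and Plxnd1 is named here after its values were seen. Its only trough, Fkbp5 in the strict test, is described further on. Jun encodes a subunit of the transcription factor AP-1 and is an immediate early gene, induced within minutes by growth factors or stress. Its signal was 260, 426 and 357 on the neonatal arrays, 968, 881 and 785 at 1 week and 370, 447 and 334 at 4 weeks. The lowest 1-week array lay above the highest of the 6 neighbours, and the 4 adult groups had means between 372 and 428. The contrast was 1.28 ± 0.19 (SE; adjusted p = 0.000261), with 1 week 2.57-fold above neonates and 2.30-fold above 4 weeks. The strict test gave an adjusted p of 0.00937.

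Lsp1 encodes a protein that binds filamentous actin in leukocytes and endothelium. It read 572, 695 and 855 in neonates, 1487, 1520 and 1974 at 1 week and 698, 709 and 777 at 4 weeks. Again no array of a neighbour reached the 1-week range. The contrast was 1.21 ± 0.15 (adjusted p = 3.58e-05; strict test 0.00123). Plxnd1 is a receptor for semaphorins that guides growing vessels and is needed for outflow tract formation. It went from 1533, 1370 and 1470 to 2246, 2439 and 3203 and back to 1275, 1428 and 1033, with a contrast of 0.95 ± 0.14 (adjusted p = 0.000276; strict test 0.0193). The 3-month, 5-month and both 1-year groups had Plxnd1 means between 940 and 1100.

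The promoters of the genes that carry these results are shown as the 250 bases before the annotated start, 5′ to 3′ on the gene's strand, from RefSeq on GRCm38.p6. The Jun window lies at chr4:95052223-95052472 and the Plxnd1 window at chr6:115995006-115995255, both on the minus strand. Capitals mark CCAAT and TGACATCA in Jun and GGGCGG in Plxnd1. In each printed window only the motifs named for it are marked, and it may hold others that are counted below. TGACATCA is the variant AP-1 site through which Jun is known to act on its own gene. It lies 45 to 38 bases before the start and was chosen after the sequence was read. Lsp1 had no matching window.
Jun: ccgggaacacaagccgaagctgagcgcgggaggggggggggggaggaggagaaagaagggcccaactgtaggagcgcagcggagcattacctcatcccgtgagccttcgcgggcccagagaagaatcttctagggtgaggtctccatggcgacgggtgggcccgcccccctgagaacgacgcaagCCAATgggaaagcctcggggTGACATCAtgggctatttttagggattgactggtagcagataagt
Plxnd1: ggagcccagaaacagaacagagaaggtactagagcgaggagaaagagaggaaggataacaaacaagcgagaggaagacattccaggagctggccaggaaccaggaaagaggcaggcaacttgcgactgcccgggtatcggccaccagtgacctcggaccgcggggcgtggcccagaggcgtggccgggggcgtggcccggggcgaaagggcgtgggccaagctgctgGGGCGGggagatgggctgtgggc

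Read over both strands, TGACATCA was present in 6.25% of the 80 windows of peak genes and in 1.96% of the 7555 windows of all genes tested. The Jun window, from which TGACATCA was chosen, is counted among those of peak genes, so the first share is no independent evidence. GGGCGG, the GC box, was in 68.8% against 52.1%, and CCAAT in 32.5% against 34.6%. Windows were found for 57 of the 77 peak genes, and some genes have several. These shares describe the letters and say nothing of a factor's binding.

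Among immediate early genes, 4 of 24 tested were peaks and 0 were troughs, against 1.04% and 1.01% of all genes. The median contrast was 0.36, against 0 over all genes. Besides Jun the peaks were Egr1, Atf3 and Ier2. Egr1, a zinc finger factor, read 481, 436 and 389 in neonates, 1027, 783 and 772 at 1 week and 395, 493 and 454 at 4 weeks (contrast 0.96 ± 0.21, adjusted p = 0.0109, and 0.0859 without 1-week array 1). Atf3, a stress-induced repressor, read 460, 420 and 446, then 550, 518 and 835, then 262, 318 and 226 (0.85 ± 0.22, adjusted p = 0.0348, and 0.270 without array 3). For both genes the 3 arrays of 1 week lay above all 6 others, and in Atf3 array 3 was far above the other 2. Ier2 overlapped with the neonates. Dusp1 and Klf2 had contrasts of 0.66 and 1.73 with adjusted p = 0.0801 and 0.0598, and Junb, Myc, Fosb and Ccn1 lay between -0.17 and 0.19 without passing the test. The count fell to 1 without 1-week array 1 and to 2 without 1-week array 3.

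**Figure D2:**
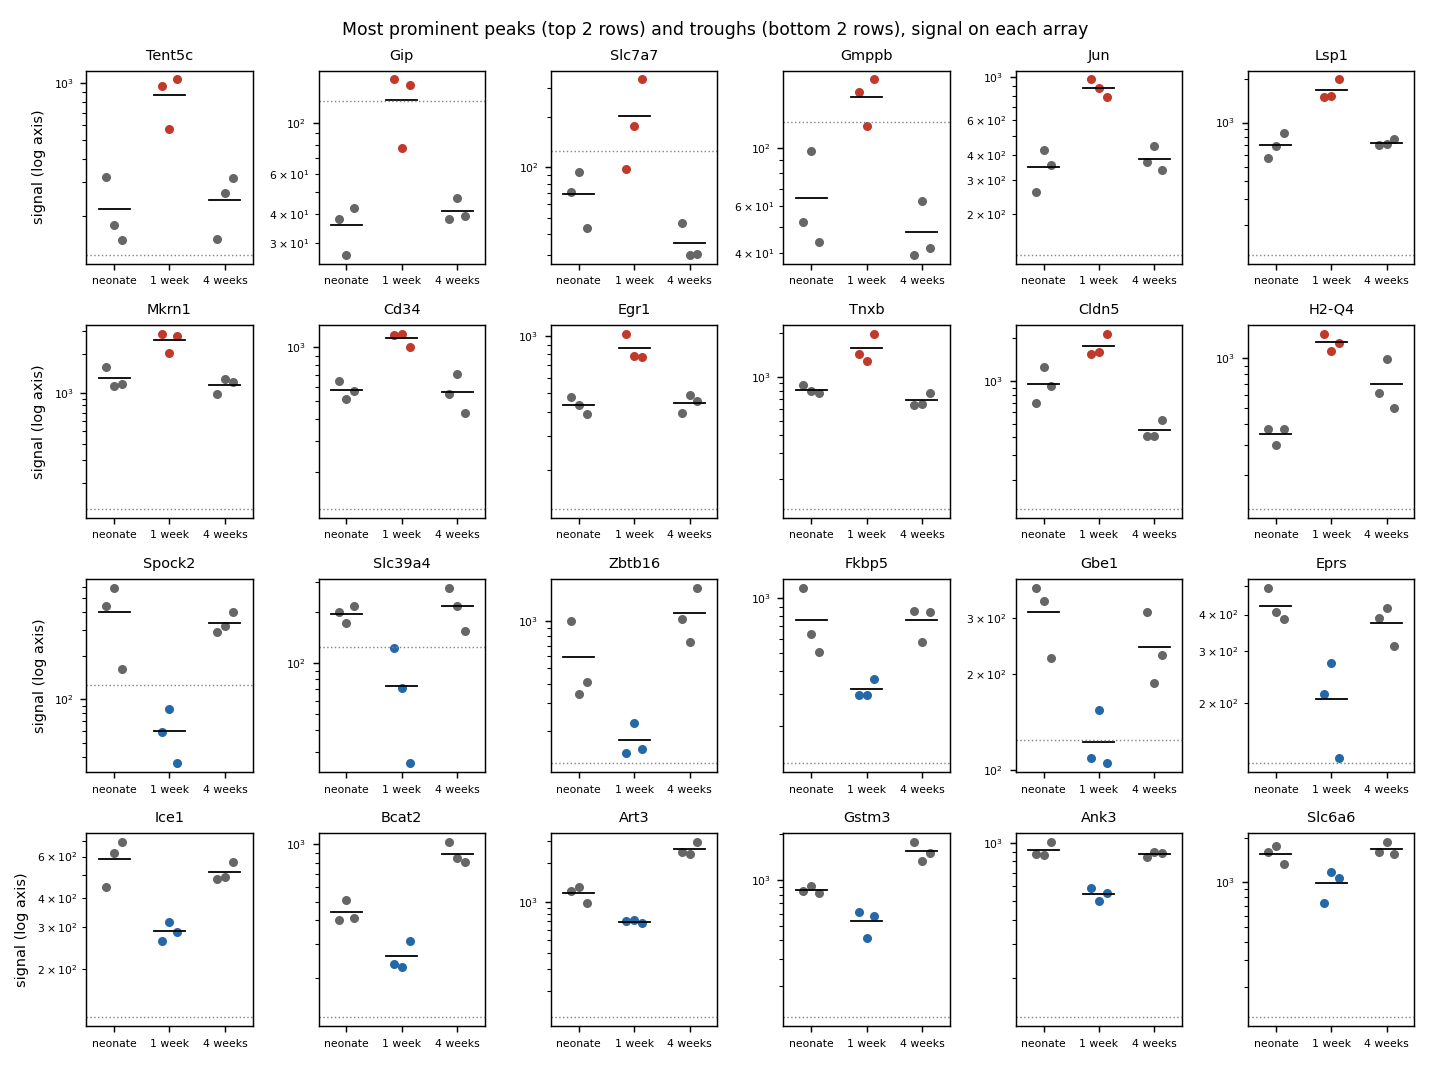
Each panel gives the signal of a gene on the 9 arrays (log axis), with bars at the group means and a dotted line at the background level of 124.6. The top 2 rows hold the 12 most prominent peaks and the bottom 2 rows the 12 most prominent troughs among genes whose 1-week arrays do not overlap with the neighbours. In every panel the 3 coloured 1-week points lie on 1 side of the 6 grey ones, as the rule for choosing them requires.

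Extracellular matrix genes formed the largest group of peaks. Of 43 tested, 11 were peaks and 0 were troughs, with a median contrast of 0.38, and in 12 all arrays of 1 week lay above all neighbours. Over all genes 1.04% were peaks, and 2.39% of all probe sets lay above all neighbours. The 11 were the fibrillar collagen chains Col1a1, Col1a2, Col3a1 and Col5a1, Col6a1, the elastic fibre genes Eln, Mfap2, Mfap5 and Fbln1, fibronectin (Fn1) and the collagen-binding proteoglycan Lum. For 10 of the 11 the difference from 4 weeks was larger than that from neonates, and Fbln1 was the exception. Eln, the elastin precursor, read 13816, 15286 and 15229 in neonates, 18819, 20653 and 20724 at 1 week and 5718, 5976 and 5041 at 4 weeks. That was 1.36-fold above neonates and 3.60-fold above 4 weeks (contrast 1.15 ± 0.16, adjusted p = 0.000114). The difference of Eln from neonates alone did not pass the test (adjusted p = 0.288). The adult groups had means of 746 to 865.

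Col1a2, the alpha 2 chain of type I collagen, read 6331, 4451 and 5104, then 6592, 7287 and 8216, then 2100, 2674 and 2189 (1.08 ± 0.13, adjusted p = 1.69e-05). Its 1-week arrays lay above every other array of the 9. The difference of Col1a2 from neonates alone did not pass the test (adjusted p = 0.0925). Col1a1, the alpha 1 chain, read 15035, 12384 and 11466 in neonates and 16952, 12666 and 16795 at 1 week, which overlap, and 4872, 5320 and 4498 at 4 weeks (0.95 ± 0.13, adjusted p = 8.2e-05). Mfap5, a microfibril protein, went from 523, 507 and 601 to 908, 912 and 1083 and then to 426, 418 and 461, without overlap (0.99 ± 0.19, adjusted p = 0.00327). Lum was high on 2 arrays only, with 3981, 3491 and 1657 at 1 week against 1526 to 2030 in neonates. The count of 11 fell to 7 without 1-week array 1 and likewise without neonatal array 2, to 8 without 1-week array 3, and to 7 without the intensity trend in the model.

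The Col1a2 window lies at chr6:4505368-4505617 on the plus strand and is shown as the collagen promoter of this group that had a match. The capitals mark CCAAT, which lies 109 to 105 bases before the start.
Col1a2: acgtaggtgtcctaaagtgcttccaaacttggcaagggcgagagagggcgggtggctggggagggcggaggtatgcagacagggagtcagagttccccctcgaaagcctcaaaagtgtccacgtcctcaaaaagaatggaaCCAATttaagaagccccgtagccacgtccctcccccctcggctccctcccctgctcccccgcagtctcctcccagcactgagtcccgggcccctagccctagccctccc

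Tnxb, a large matrix glycoprotein of the tenascin family that was not on that list, was among the most prominent peaks. It read 872, 793 and 776 in neonates, 1439, 1286 and 1970 at 1 week and 642, 651 and 771 at 4 weeks (contrast 1.04 ± 0.23, adjusted p = 0.0124, and 0.123 without 1-week array 3). Postn (periostin), by contrast, passed the threshold without being a peak, since its 1-week arrays at 7697, 7369 and 3164 straddled the neonatal 6370 to 7462.

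Cells that make this matrix were read through their own markers. Of 17 tested markers of epicardium and fibroblasts 5 were peaks and 0 troughs, against 1.04% and 1.01% of all genes (median contrast 0.52). The peaks were Col1a1, Col1a2, Col3a1 and Lum, which are also on the matrix list, and Tcf21. Tcf21, a transcription factor of the fibroblast lineage, read 915, 800 and 695, then 1070, 964 and 1223, then 504, 516 and 350 (0.85 ± 0.18, adjusted p = 0.00947), with its 1-week arrays above all others. Dcn (decorin), among the brightest markers of the list, rose throughout and was not called (contrast 0.28, adjusted p = 0.312). It read 5689 to 7342 in neonates, 10728 to 12657 at 1 week and 14250 to 14684 at 4 weeks. The list's summed signal ran from 40730 to 50864 in neonates, from 55355 to 61585 at 1 week and from 30851 to 33594 at 4 weeks. This sum includes the genes shared with the matrix list. The count was 3 without 1-week array 1, 1-week array 2 or neonatal array 2. More cells of a type and more RNA per cell cannot be told apart in such bulk samples.

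Endothelial markers gave 5 peaks and 0 troughs of 20 tested, against 1.04% and 1.01% of all genes, with a median contrast of 0.32. Cd34, a sialomucin of endothelial and progenitor cells, read 650, 512 and 567 in neonates, 1169, 1196 and 1004 at 1 week and 546, 713 and 432 at 4 weeks (0.99 ± 0.20, adjusted p = 0.00588). Cldn5, the tight junction protein of vessels, read 695, 1262 and 918, then 1564, 1594 and 2168, then 408, 407 and 533 (1.45 ± 0.30, adjusted p = 0.00906, and 0.0888 without 1-week array 3). Both were free of overlap at 1 week. Against neonates alone Cd34 passed the test (adjusted p = 0.0239) and Cldn5 did not (0.226). The others were Icam2, an adhesion molecule (0.90 ± 0.22), Sox18, a vascular transcription factor (0.58 ± 0.15), and Cdh5, the cadherin of endothelial junctions (0.55 ± 0.14). The general endothelial genes Pecam1, Kdr and Tek had contrasts of -0.09, 0.13 and 0.17 and did not pass the test. The list's summed signal was 19522 to 21056 in neonates, 23911 to 33292 at 1 week and 21202 to 21635 at 4 weeks. Only Cd34 kept its call whichever of the 9 arrays was left out. The count was 1 without 1-week array 3, 2 without neonatal array 2 and 3 without 1-week array 1, neonatal array 3, 4-week array 1 or 4-week array 3.

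**Figure D3:**
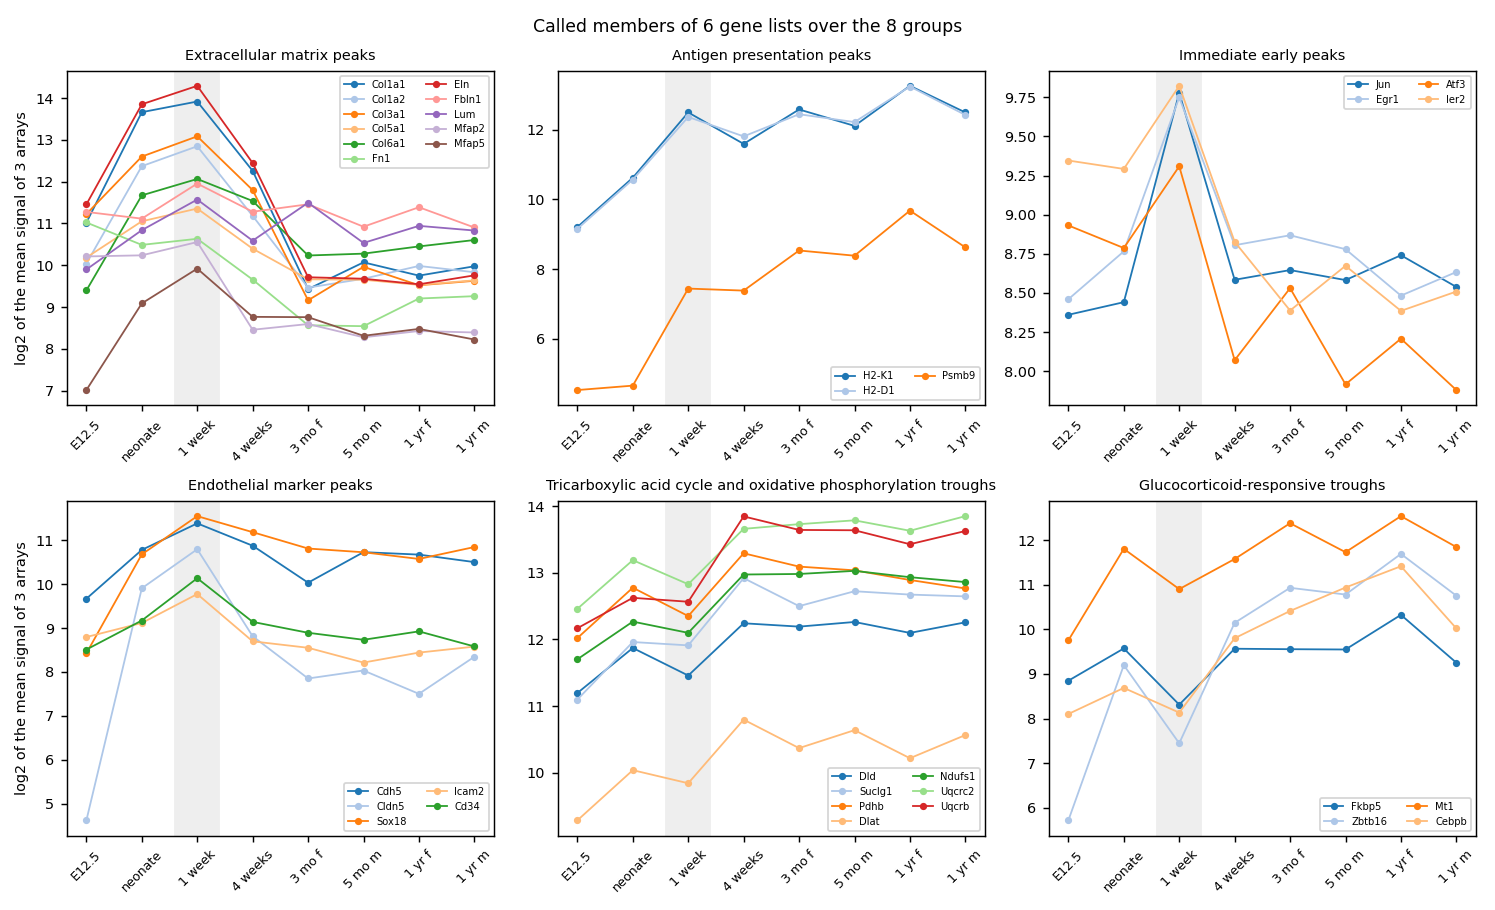
Lines give the log2 of the mean signal of the called members of 6 gene lists in the 8 groups from E12.5 to 1 year, with 1 week shaded. Most matrix genes, such as Eln, are high in neonates and at 1 week and lower in adults, the 4 immediate early genes have their highest mean at 1 week, and H2-K1 and H2-D1 are again high in adults. The members were chosen by the 1-week contrast, so the turn at 1 week is what selected them.

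Genes of antigen presentation by class I molecules of the major histocompatibility complex, which display peptides to cytotoxic T cells, gave 3 peaks and 0 troughs of 19 tested. Over all genes 1.04% were peaks and 1.01% troughs. The 3 were H2-K1, H2-D1 and Psmb9, and the median contrast of the list was 0.32. The mean log2 signal of the whole list was 7.75 to 7.98 in neonates, 8.48 to 8.81 at 1 week and 8.87 to 8.92 at 4 weeks, so the list as a whole was no lower at 4 weeks. H2-K1, a classical class I heavy chain, read 1479, 1824 and 1412 in neonates, 8606, 3538 and 5101 at 1 week and 3343, 3178 and 2711 at 4 weeks (1.30 ± 0.18, adjusted p = 8.2e-05). Its 1-week arrays lay above all others. The 4 adult groups had means of 4402 to 9746, all above the 4-week mean of 3078. H2-D1 read 1344, 1661 and 1542, then 6984, 3593 and 5183, then 3731, 3672 and 3315, which overlaps with 4 weeks. Psmb9, a subunit of the immunoproteasome, was a step rather than a peak: it read 22.8 to 29.0 in neonates, below background, 128 to 220 at 1 week and 155 to 188 at 4 weeks.

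By symbol, class I genes of the H2 complex had 26 probe sets, of which 8 were peaks and 0 troughs, against 0.914% peaks over all probe sets. Of the 26, 17 had a contrast above 0, with a median of 0.41, and the 3 probe sets of H2-K1 ranged from 0.43 to 1.30. These counts were made after the values were seen. The 8 belong to H2-K1, H2-D1, H2-K2, H2-D4, H2-Q4 and H2-Bl, whose sequences are close to each other, so probe sets may share transcripts and the genes are uncertain as separate members. H2-Q4 was among the most prominent peaks without overlap: it read 377, 300 and 374 in neonates, 1401, 1101 and 1232 at 1 week and 618, 993 and 499 at 4 weeks (1.35 ± 0.18, adjusted p = 8.2e-05). B2m, the light chain that all class I molecules share, was uneven at 1 week, with 7236, 1416 and 4952 against 1097 to 1402 in neonates and 2267 to 3090 at 4 weeks. Its contrast of 1.01 did not pass the test (adjusted p = 0.0968). The class II genes H2-Aa, H2-Ab1 and H2-Eb1, which present to helper T cells, had contrasts of -1.01, 0.71 and -0.80 and did not pass it either, and 0 of 20 interferon response genes were called.

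The class I promoters are shown for H2-K1 and H2-D1, which were both peaks. H2-K1 has a window at chr17:34000348-34000597 on the minus strand and H2-D1 at chr17:35262844-35263093 on the plus strand. H2-K1 has 2 windows, of which 1 is given. The longer run of capitals is made of overlapping matches, on both strands, to the kappaB consensus, the site of NF-kappaB factors known in class I promoters. The shorter run is GAANNGAAA, read on the other strand, a pattern of the adjoining interferon response element. Both patterns were chosen after the sequences were read. They begin 111 and 90 bases before the start of H2-K1 and 171 and 150 bases before that of H2-D1.
H2-K1: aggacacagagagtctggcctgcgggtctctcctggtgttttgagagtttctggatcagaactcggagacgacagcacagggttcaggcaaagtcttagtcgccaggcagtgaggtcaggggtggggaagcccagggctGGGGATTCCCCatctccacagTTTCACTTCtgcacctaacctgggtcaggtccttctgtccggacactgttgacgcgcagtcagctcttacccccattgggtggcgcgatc
H2-D1: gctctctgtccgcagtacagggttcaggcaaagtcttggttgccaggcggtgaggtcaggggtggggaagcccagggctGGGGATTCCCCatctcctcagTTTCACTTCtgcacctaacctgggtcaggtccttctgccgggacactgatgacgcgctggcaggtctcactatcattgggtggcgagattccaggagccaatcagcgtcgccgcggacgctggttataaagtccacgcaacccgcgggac

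The kappaB consensus was found in 20% of the 80 windows of peak genes and in 9.15% of the 7555 windows of all genes. In the 76 windows of trough genes it was in 14.5%. GAANNGAAA was in 15%, 5.31% and 7.89% of the same sets. The windows of H2-K1 and H2-D1, from which the patterns were chosen, are counted among those of peak genes, so the first share is no independent evidence. Any windows of other class I peak genes, which are close to these in sequence, would be no independent matches either.

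Tent5c was the most prominent of the 12 peaks named by rule. Tent5c encodes a poly(A) polymerase that lengthens the tails of mRNAs. It read 320, 179 and 149 in neonates, 969, 575 and 1048 at 1 week and 150, 265 and 316 at 4 weeks (1.94 ± 0.35, adjusted p = 0.00279). It was higher still at E12.5, with a mean of 1827. Mkrn1, a ubiquitin ligase, read 1575, 1124 and 1170, then 2882, 2050 and 2768, then 979, 1284 and 1201 (1.07 ± 0.21, adjusted p = 0.00583), and all of its 3 probe sets had contrasts between 0.77 and 1.07. In both genes 1-week array 2 was the lowest of the 3.

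Red-cell genes are given beside these peaks. Alas2, the heme synthesis enzyme of red cells, was also lowest on 1-week array 2, with 792 to 1379 in neonates, 3687, 1648 and 3350 at 1 week and 722, 1539 and 988 at 4 weeks. Of the 16 erythroid markers tested 0 were called, but 5 (Alas2, Hbb-b2, Hba-a1, Slc4a1 and Car2) lay above all 6 arrays of the neighbours at 1 week. Over all probe sets 2.39% did so. The adjusted p of Alas2 was 0.0613 and its contrast 1.46. The order of the arrays was not shared by all markers: at 1 week Hba-a1 read 30543, 26011 and 25296, lowest on array 3, and Tfrc, the transferrin receptor, 3880, 6183 and 3442, highest on array 2. The list's summed signal was 37976 to 41392 in neonates, 52856 to 62566 at 1 week and 38340 to 41967 at 4 weeks, and 6 of the 16, among them Gata1 and Epor, were below background in all 3 groups. The part of red-cell RNA in the peaks of Tent5c, Mkrn1 and the class I genes was not tested.

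**Figure D4:**
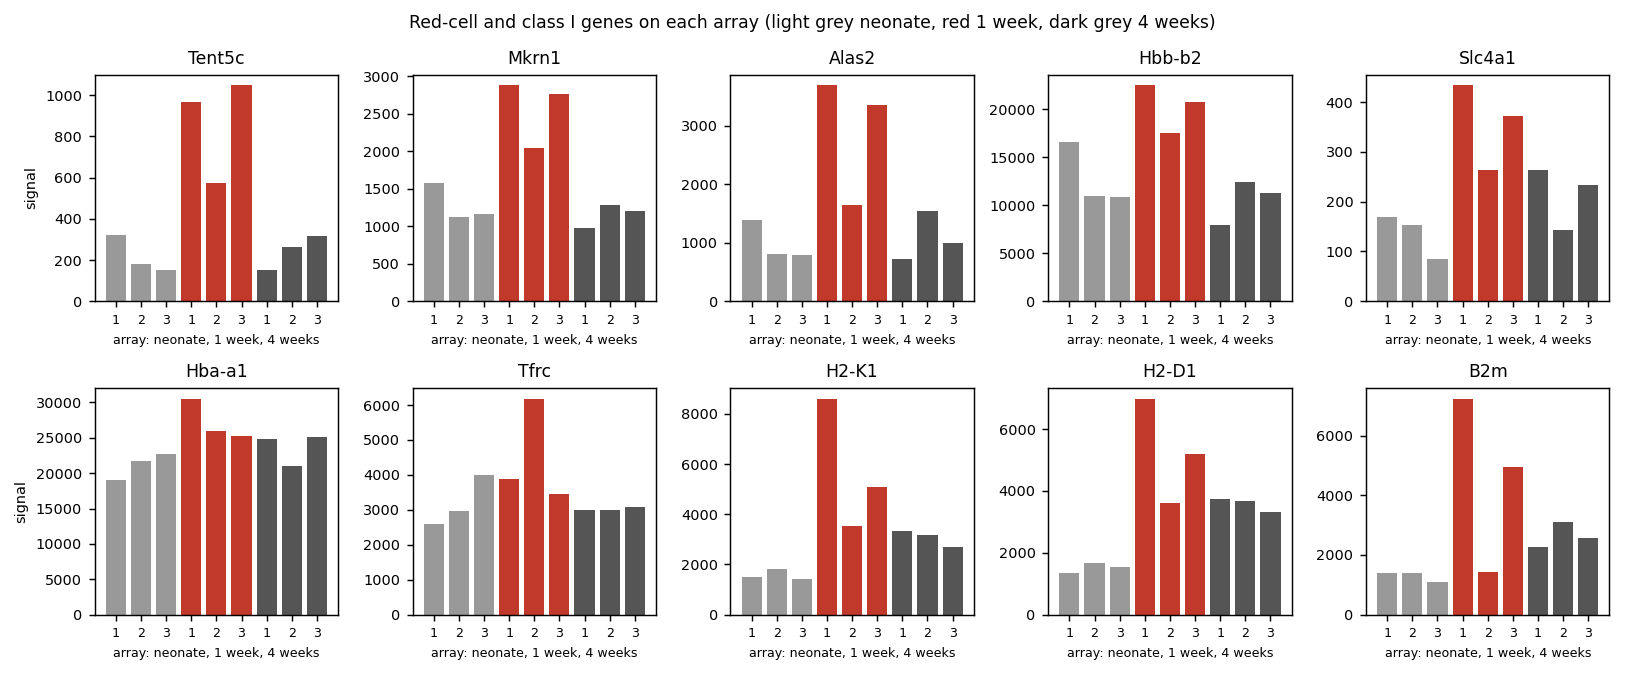
Bars give the signal of Tent5c, Mkrn1, 5 erythroid markers, 2 class I heavy chains and B2m on each of the 9 arrays, from 0 on a linear axis. At 1 week array 2 is the lowest of the 3 in 8 of the 10 panels, for example 1648 for Alas2, but not for Hba-a1 (26011) or Tfrc (6183).

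3 further prominent peaks were dim. Slc7a7, a transporter of cationic amino acids, read 71.6, 93.6 and 43.3, then 98.2, 178 and 337, then 46.1, 29.9 and 30.3. Gmppb, an enzyme of GDP-mannose synthesis, read 43.9 to 97.4 in neonates, 120 to 181 at 1 week and 39.4 to 63.1 at 4 weeks. Gip, a gut hormone, read 26.6 to 42.6, then 78.1 to 155, then 38.1 to 47.0. All neonatal and 4-week values lay below the background of 124.6, so these folds depend on it. Each of the 3 lost its call in at least 5 of the 9 fits without an array.

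Kcne1 had the largest contrast of the named genes, and was mainly a fall after 1 week. It encodes the small subunit of the channel that carries the slow potassium current of repolarization. It read 1084, 1106 and 941 in neonates, 1796, 1669 and 2208 at 1 week and 49.1, 71.9 and 56.2 at 4 weeks, below background (2.93 ± 0.35, adjusted p = 2.26e-05). The difference from neonates alone was 1.80-fold and did not pass the test (adjusted p = 0.385). Of 17 ion channel genes tested it was the only one called. Among atrial markers Stard10 was called (1 of 12). Myl7, the atrial light chain, fell from 12318 to 16293 at 1 week to 700 to 980 at 4 weeks, from neonatal values of 16464 to 16889, and was not called.

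Proliferation genes had high medians with few calls. DNA replication genes had a median contrast of 0.71 with 1 peak of 30 (Mcm7, a subunit of the replicative helicase), and cell cycle and mitosis genes 0.63 with 1 of 37 (Cdc20, an activator of the anaphase-promoting complex). In each list 0 members lay above all arrays of both neighbours, against 2.39% of all probe sets, and 0 were troughs. With different signs, 0 of the replication genes and 1 of the mitosis genes passed the threshold. Cdc20 shows the shape: it read 2052, 953 and 1263 in neonates, 1193, 1546 and 1520 at 1 week and 341, 342 and 417 at 4 weeks. Neonate and 1 week overlapped and 4 weeks was far lower, so the contrast of 1.01 came from the later side. Btg1, an antiproliferative gene, stood somewhat apart, with 776, 784 and 595, then 838, 808 and 1187, then 264, 386 and 367 (0.93 ± 0.19, adjusted p = 0.00695, and 0.0913 without 1-week array 3). Of the IGF axis, Htra1, a protease that cuts IGF-binding proteins and matrix, was the 1 peak of 14.

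The clearest trough was Fkbp5, a co-chaperone that binds the glucocorticoid receptor and is a textbook target of it. It read 1141, 636 and 509 in neonates, 296, 296 and 361 at 1 week and 854, 578 and 843 at 4 weeks. Every 1-week array lay below every neighbour, and the 1-week mean was 0.441 times the neonatal and 0.423 times the 4-week level. The contrast was -1.21 ± 0.22 (adjusted p = 0.00212; strict test 0.0364). The adult groups had means of 610 to 1285 and E12.5 of 461, so that 1 week was the lowest of the 8 groups.

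Zbtb16, a zinc finger repressor also known to respond to glucocorticoids, fell further, reading 1009, 345 and 409 in neonates, 144, 224 and 154 at 1 week and 1032, 741 and 1635 at 4 weeks (-2.14 ± 0.42, adjusted p = 0.00468). It did not overlap with its neighbours, and only E12.5, at 52.4, was lower. A list of glucocorticoid-responsive genes was drawn up after these values were seen. Of its 21 tested genes 4 were troughs and 0 peaks, with a median contrast of -0.18: Fkbp5, Zbtb16, Mt1 and Cebpb. All arrays of 1 week lay below all neighbours for 2 members, but above all of them for 3 others. Over all probe sets these shares were 1.89% and 2.39%. Since both genes that prompted the list are on it, the count of troughs supports nothing beyond them.

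Mt1, a metal-binding metallothionein, read 4228, 3615 and 2933, then 1569, 1504 and 2685, then 3360, 2511 and 3327, with the third 1-week array within the range of the others (-0.83 ± 0.21, adjusted p = 0.0356, and 0.178 without 1-week array 1). Cebpb, a leucine zipper factor, read 164, 312 and 366 at 1 week, against 365 to 487 in neonates and 633 to 1063 at 4 weeks (-1.17 ± 0.22, adjusted p = 0.00317). Other targets went their own way. Mt2 read 2314 to 4188 in neonates but 750 to 945 at 1 week and 944 to 1120 at 4 weeks (adjusted p = 0.057). Per1, Sgk1, Klf9 and Tsc22d3 had contrasts of -0.24, -0.13, -0.28 and 0.50, with adjusted p from 0.444 to 0.888.

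The Fkbp5 window lies at chr17:28486150-28486399 on the minus strand. Capitals mark CCAAT on either strand and GGGCGG. The third GGGCGG is followed directly by ATTGG, which is CCAAT on the other strand.
Fkbp5: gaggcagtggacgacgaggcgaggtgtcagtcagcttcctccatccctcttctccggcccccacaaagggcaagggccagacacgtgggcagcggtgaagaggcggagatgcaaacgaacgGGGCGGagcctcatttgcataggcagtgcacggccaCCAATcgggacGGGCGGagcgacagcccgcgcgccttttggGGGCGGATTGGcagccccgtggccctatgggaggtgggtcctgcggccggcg

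CCAAT was in 35.5% of the 76 windows of trough genes, for 61 of the 75 genes, and GGGCGG in 50%, against 34.6% and 52.1% of all windows. The receptor's known sites in Fkbp5 lie far outside a window of this length, and none was searched.

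The most prominent trough was Spock2, a proteoglycan of the SPARC family, with 444, 589 and 163 in neonates, 58.9, 85.7 and 36.0 at 1 week and 293, 318 and 401 at 4 weeks (-2.59 ± 0.51, adjusted p = 0.0048, and 0.0609 without 1-week array 3). All 3 arrays of 1 week lay below background, so the size of the contrast depends on it. Slc39a4, a zinc importer, read 171 to 215, then 25.7 to 122, then 153 to 277, and lost its call in 7 of the 9 fits without an array. Its 1-week arrays, too, all lay below background. Art3, an ADP-ribosyltransferase-like membrane protein of muscle, was steadier: 1220, 1313 and 978, then 700, 719 and 679, then 2450, 2363 and 2939 (-1.31 ± 0.20, adjusted p = 0.000342). It kept its call in every fit run.

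Gbe1, the glycogen branching enzyme, read 374, 340 and 225 in neonates, 109, 154 and 105 at 1 week and 314, 188 and 230 at 4 weeks (-1.16 ± 0.27, adjusted p = 0.0174, and 0.112 without 1-week array 3). The 1-week mean of 122.9 lay just below background. Gyg (glycogenin), the primer of glycogen synthesis, was named after its values were seen; it read 1836, 1506 and 1075 in neonates, 433 to 610 at 1 week and 517 to 607 at 4 weeks, so its fall came before 1 week. Slc6a6, the taurine transporter, read 1607, 1753 and 1329, then 724, 1181 and 1068, then 1600, 1873 and 1564 (-0.73 ± 0.16, adjusted p = 0.0132, and 0.140 without 1-week array 1). Plin4, a lipid droplet coat protein and the 1 trough of 11 lipid synthesis and storage genes, read 152 to 229 at 1 week, within reach of the neonatal 210 to 339, and 748 to 1024 at 4 weeks (-1.27 ± 0.22).

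Other prominent troughs were Eprs, a tRNA synthetase (494, 408 and 385, then 215, 273 and 130, then 390, 420 and 312), and Ice1, a scaffold for small nuclear RNA transcription (447, 621 and 693, then 263, 318 and 286, then 484, 492 and 568). Ank3 (ankyrin G), which anchors membrane proteins to the cytoskeleton, read 860 to 1011, then 500 to 582, then 841 to 892, and both of its probe sets were troughs, with contrasts of -1.01 and -0.72. These 3 genes lay below all arrays of both neighbours, and without 1-week array 3 their adjusted p rose to 0.121, 0.0620 and 0.0679. Angpt1, the ligand of the endothelial receptor Tek, had 48.9, 131 and 17.1 at 1 week against 107 to 193 in neonates, and so overlapped. With Bnip3, a mitophagy receptor induced by low oxygen (-0.56 ± 0.15), it made 2 troughs of 19 angiogenesis and hypoxia genes.

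Of 18 tested genes of the tricarboxylic acid cycle and pyruvate oxidation 4 were troughs and 0 peaks (Dld, Pdhb, Dlat and Suclg1), with a median contrast of -0.30. Over all genes 1.01% were troughs. Pdhb, a pyruvate dehydrogenase subunit, read 7380, 8031 and 5616 in neonates, 4962, 5800 and 4894 at 1 week and 10017, 9716 and 10340 at 4 weeks (-0.68 ± 0.15, adjusted p = 0.0141, and 0.0872 without 1-week array 3). The 1-week values overlapped with the neonatal ones and lay far below those at 4 weeks. Suclg1, a subunit of succinyl-CoA ligase, read 3367 to 4313 in neonates and 3562 to 4218 at 1 week, which is level, and then 7575 to 7853. The count was 1 without 1-week array 3, 2 without neonatal array 2 or neonatal array 3, 6 without 1-week array 2, and 1 without the intensity trend.

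Oxidative phosphorylation had 3 troughs and 0 peaks of 49, against 1.01% troughs over all genes, with a median of -0.06. The troughs were Ndufs1 of complex I and Uqcrc2 and Uqcrb of complex III. Uqcrc2 was below all neighbours, at 7337, 7560 and 6902 against 8951 to 9574 in neonates and 12154 to 14402 at 4 weeks (-0.59 ± 0.15, adjusted p = 0.0396). It lost its call in each of the 9 fits without an array, with adjusted p up to 0.159. Uqcrb was low on 1 array only, with 7275, 7256 and 3637. Without 1-week array 3 the count was 0, and it was 1 without 1-week array 1, neonatal array 2 or 3, or 4-week array 2 or 3. Fatty acid oxidation had 0 peaks or troughs of 26 and a median of -0.25, and 1 member passed the threshold with different signs. Glycolysis and glucose uptake had 0 of 14 and a median of -0.20.

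Among antioxidant genes 3 of 21 were troughs and 0 peaks, against 1.01% troughs over all genes. The troughs were Mt1 and the glutathione transferases Gstm1 and Gstm2. Gstm1 read 3472, 4048 and 3695, then 2525, 2689 and 3564, then 7173, 6276 and 7267 (-0.81 ± 0.15, adjusted p = 0.00323). Gstm3, which was not on the list, read 846, 909 and 818, then 616, 416 and 581, then 1780, 1338 and 1503 (-1.11 ± 0.16, adjusted p = 0.000122), but its other probe set had a contrast of 0.36. Genes of this family are close in sequence and are uncertain as separate members. The count was 1 without 1-week array 1 or 2, neonatal array 1 or 2, or 4-week array 3.

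Contractile genes had 2 troughs of 18 and 0 peaks, with a median of -0.11. Myom1, a protein of the sarcomeric M-band, read 3429, 3758 and 3485, then 3171, 2876 and 2944, then 5703, 5488 and 5986 (-0.59 ± 0.13, adjusted p = 0.0143), so it dipped slightly before it rose. Slc8a1, the sodium-calcium exchanger, fell from 5684 to 7206 in neonates to 2510 to 3414 at 1 week and read 2661 to 3589 at 4 weeks, a step more than a trough. Casq1, the calsequestrin of skeletal muscle, had the smallest adjusted p of the named genes (4.02e-07; -1.37 ± 0.12). Its values of 2601 to 3164, then 1888, 2315 and 2100, then 10074 to 10570 were set mainly by 4 weeks, which stood above the adult means of 2361 to 3626 as well. Skeletal muscle markers had 2 troughs of 16 (Casq1 and Myl1), with a summed signal of 6462 to 8140 in neonates, 5157 to 6179 at 1 week and 14611 to 14967 at 4 weeks. 8 of the 16, the fast myosins Myh1, Myh2 and Myh4 among them, were below background in all 3 groups. The part of skeletal muscle RNA in these values was not tested. Without 1-week array 3 the count of contractile genes was 0 and that of skeletal muscle markers 1.

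**Figure D5:**
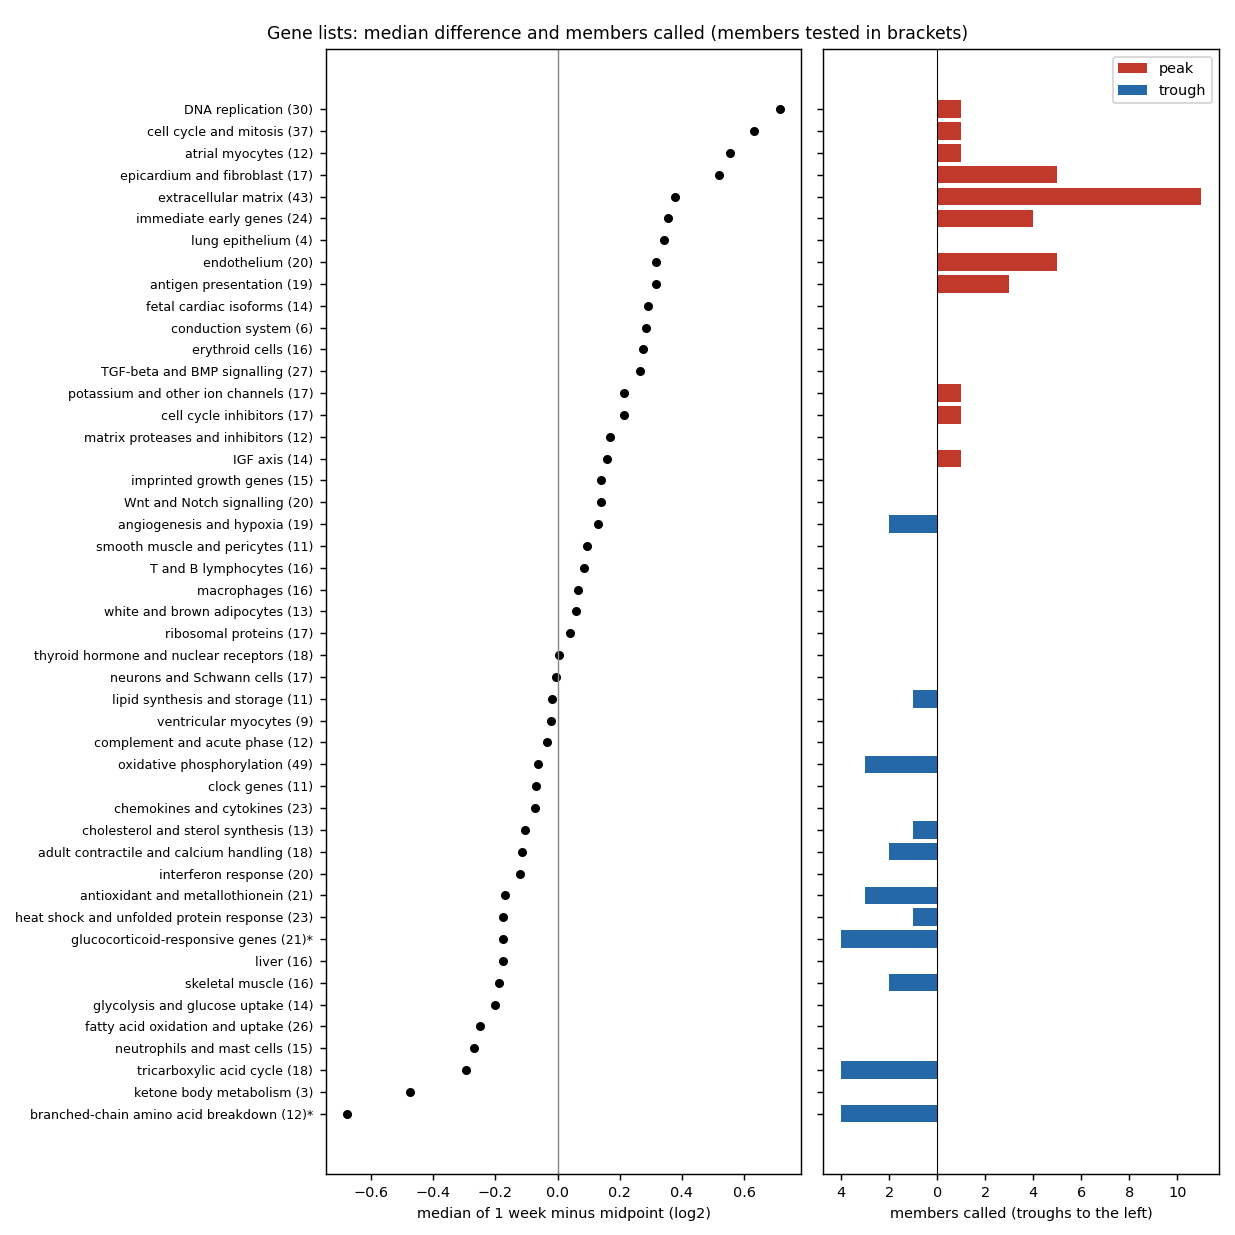
The left panel gives, for each gene list, the median contrast (1 week minus the midpoint of its neighbours, log2), and the right panel the number of members called, peaks to the right and troughs to the left. The number of members tested is in brackets, and asterisks mark the 2 lists drawn up after values were seen. The lists without an asterisk were chosen with earlier results of these data known. Extracellular matrix has the most calls, with 11, while the highest median among the lists, 0.71 for DNA replication, comes with 1.

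Single troughs came from sterol synthesis (Hmgcs1, which makes the precursor of mevalonate, 1 of 13) and from the heat shock and unfolded protein list (Hspe1, the mitochondrial chaperonin partner, 1 of 23). Hspe1 read 1998 to 2279, then 1434, 1785 and 1738, then 2594 to 2944, without overlap (-0.58 ± 0.11, adjusted p = 0.00316). Many other lists had 0 peaks or troughs: fetal cardiac isoforms (14 tested), ribosomal proteins (17), chemokines and cytokines (23), TGF-beta and BMP signalling (27), Wnt and Notch signalling (20), thyroid hormone and nuclear receptors (18), matrix proteases and inhibitors (12), imprinted growth genes (15), complement and acute phase (12), ketone body metabolism (3) and clock genes (11). Of other cell types, macrophage markers (16), T and B lymphocytes (16), neutrophils and mast cells (15), smooth muscle and pericytes (11), adipocytes (13), liver (16), neurons and Schwann cells (17), conduction system (6) and lung epithelium (4) also had 0. The macrophage genes C1qa and C1qc rose steadily, C1qa from 447 to 487 in neonates over 863 to 1126 at 1 week to 1498 to 1788 at 4 weeks. T cell markers such as Cd3e, Cd3d and Cd8a were below background in all 3 groups. Over all genes tested 1.04% were peaks and 1.01% troughs, so lists this short would often hold 0. A count of 0 therefore says little about their members, and the same goes for the lists with 0 named earlier. In these counts of 0 a gene past limma's threshold with different signs against the neighbours is not included. There was 1 such gene each among fetal cardiac isoforms, TGF-beta and BMP signalling, imprinted growth genes, ketone body metabolism, and neurons and Schwann cells. The last was Mapt, which rose from 15.0 to 33.9 in neonates over 847 to 1322 at 1 week to 2115 to 3235 at 4 weeks. At an unadjusted p below 0.05, the lists with 0 peaks or troughs had from 0 (lung epithelium) to 7 members (fatty acid oxidation).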

How the data were processed

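The files hold 1 intensity per probe set and array, on a linear scale, from single-channel Affymetrix arrays that the authors had scaled before they deposited them: the 2% trimmed mean was 500.4 to 500.6 on each array. The software behind them is not given in the sources used here. The table has 12654 probe sets, with 66 controls and 2611 that are 0 on every array. Signals below 14.2 (the 25th percentile of the table) were raised to that value before taking log2. Probe sets above that floor on at least 3 of 24 arrays were tested, 9952 in all. Of 9977 measured, 8724 carry 1 gene symbol, 346 several and 907 none. Symbols follow the platform annotation, updated by Entrez ID to RefSeq of GRCm38.p6.

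limma 3.58.1 in R 4.3.3 was fitted over all 24 arrays with 1 mean per group and an intensity trend (16 residual degrees of freedom). The contrast was 1 week minus the mean of neonate and 4 weeks, two-sided, with Benjamini-Hochberg adjustment over 9952 probe sets. The strict test used the larger of the p-values against the 2 neighbours, with the same sign. The fit was tested on simulated data. Values after ± are standard errors of the fit. Background, 124.6, is the 95th percentile of 19 non-mouse control probe sets, and 37.6% of the tested values in the 9 arrays lie below it. The number of arrays limits the precision.

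A gene stands for its brightest probe set. Named genes are the 12 most prominent peaks and troughs without overlap and above background, up to 3 called members per list, the 3 brightest markers of each cell type and sex-linked genes. Plxnd1 and list members outside this rule were chosen after their values were seen. Members and lists were chosen with earlier results of these data known.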

Additional observations from a re-analysis of the deposited data

How the results depend on the processing

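The total of 218 probe sets past the threshold was 344 with the floor at the background level, 138 without the intensity trend and 343 with array weights. Peaks (91) became 145 with the floor at background and 56 without the trend. With array weights they were 135. Troughs (90) became 59 with only the 9 arrays, 59 without the trend and 139 with array weights. Strict peaks (3) became 14 with the floor at background, 1 with only the 9 arrays and 10 with array weights. Strict troughs (1) became 2 under quantile normalization and with the floor at background, 0 with only the 9 arrays or without the trend, and 3 with array weights. Leaving out each array in turn gave totals of 112 to 247, peaks of 37 to 93, troughs of 50 to 130, strict peaks of 2 to 8 and strict troughs of 0 to 2. The lowest totals, peaks and troughs came without 1-week array 3. The cause of these shifts was not tested. Of the 91 peaks, 31 were still called without that array, and of the 90 troughs 37. Of 65 named genes called, 24 kept the call under all 7 alternatives and in all 9 fits without an array, and 0 reversed. No paired analysis was possible because no title number is tied to a litter, animal or batch across ages.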

Other observations

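Genes that break down the branched-chain amino acids leucine, isoleucine and valine also gave troughs, in a list drawn up after the values were seen. Of 12 tested, 4 were troughs and 0 peaks, with a median contrast of -0.68. Bcat2, already among the most prominent troughs, is counted in the list, so the count is no independent evidence. The list's summed signal was 6158 to 7831 at 1 week, overlapping with 6703 to 7572 in neonates, and at least 12265.5 at 4 weeks. Bcat2, the mitochondrial aminotransferase that starts the pathway, read 400, 514 and 411 in neonates, 237, 230 and 312 at 1 week and 1031, 848 and 806 at 4 weeks (-1.28 ± 0.22, adjusted p = 0.00113). Its 1-week arrays lay below all others, but the difference from neonates alone did not pass the test (adjusted p = 0.125). Bckdhb, a subunit of the dehydrogenase of the next step, read 1030, 803 and 710, then 553, 621 and 740, then 1286, 1381 and 1302 (-0.73 ± 0.14, adjusted p = 0.00363). Ivd, which oxidizes the leucine product, and Mmut, the mutase that feeds succinyl-CoA, had contrasts of -0.84 ± 0.18 and -0.76 ± 0.20, and both overlapped with the neonates. Mmut kept its call in 4 of the 9 fits without an array and under 3 of the 7 alternatives.

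Reep5, a protein that shapes the endoplasmic reticulum, was the 1 symbol with a probe set in each class. The brighter probe set was a peak, with 5597, 5900 and 6628 in neonates, 7578, 8207 and 10001 at 1 week and 6187, 6750 and 6543 at 4 weeks. The dimmer was a trough, at 1776, 1503 and 1805, then 1594, 1475 and 1071, then 2353, 2857 and 2801. Igfbp3, a binding protein of insulin-like growth factors, likewise depended on the probe set. The dimmer one, with a contrast of -2.20, read 331, 181 and 159, then 56.8, 25.2 and 83.8, then 256, 178 and 318, while its brighter probe set had a contrast of -0.38 and was not called (adjusted p = 0.878).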
